A study of Macaca radiata with 6 samples.

Results

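Chemokines and chemokine receptors other than CCL2, CCL5, CCL8, CCL13, CCL17 and CCL18 were read on 55 of the 52865 probe sets of the array, which represented 38 genes, 25 of them ligands and 13 receptors or receptor-like proteins. The members were all probe sets whose single annotated symbol begins with CCL, CXCL, CX3CL, XCL, CCR, CXCR, CX3CR or CCRL and ends in a number, leaving out those 6 ligands, and no limit on brightness was set. The tissue was the corpus luteum, the gland that forms from the ovulated follicle and secretes progesterone, taken from female bonnet monkeys (Macaca radiata). In the PGF2alpha group the animals received 3 intramuscular injections of prostaglandin F2-alpha at 59 µg/kg body weight on day 10 of the luteal phase, and in the vehicle group they received phosphate-buffered saline. The tissue was collected 24 h later in both groups, with 3 arrays in each group, numbered 1 to 3 for PGF2alpha and 4 to 6 for vehicle in the labels. Age is not given, and nothing ties an array to one animal, so a p-value covers the spread among these 6 samples only. The comparison asks which luteal transcripts change after a prostaglandin known to induce regression of the gland.

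Chemokines are small secreted proteins that steer white blood cells along gradients, and they act through receptors that couple to inhibitory G proteins. They are named after the spacing of their first cysteines (CC, CXC, CX3C and XC), and each family of ligands has receptors of its own. In the regressing corpus luteum they are known as the signals that bring monocytes, neutrophils and lymphocytes into the gland. Roles of single genes given here are those known in human and mouse.

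The arrays carried probes of the rhesus macaque, per the scanner experiment files, a related species. The median signal of an array lay between 115 and 134, and without detection calls no signal could be called present or absent. Signals of different probe sets are not comparable as levels, and a fold is uncertain in size where the lower group lies far below the array median. Markers of the luteal cell read above the array median on all arrays, and 7 of the 11 listed were named on the array. Their summed signal was 78117 to 142669 on the PGF2alpha arrays and 158676 to 190704 on the vehicle arrays. STAR gave the largest part on every array, at 33832 to 50313 and 58817 to 71945 in the same order. By limma at an adjusted p of 0.05, 0 of the 7 were higher and 0 lower, beside 1.57% of all probe sets called. The 3-prime to 5-prime signal ratio of actin, a sign of RNA quality, had a log2 difference of 0.03 (exact permutation test, two-sided, p = 1.0, where 3 against 3 arrays cannot go below 0.1). The arrays were hybridised in 2 runs by the times in the experiment files, run 1 with PGF2alpha arrays 1 and 3 and vehicle arrays 5 and 6, and run 2 with PGF2alpha array 2 and vehicle array 4.

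After PGF2alpha, 3 of the 55 member probe sets were higher and 0 were lower by limma at an adjusted p of 0.05. They read the monocyte receptors CCR1 and CCR2 and the lymphocyte ligand XCL1, with log2 fold changes of 1.34, 2.14 and 3.29. This is 5.45% of the members, against 1.57% of all 52766 probe sets other than controls (826 called, 533 higher and 293 lower). At an unadjusted p of 0.05, 12 of the 55 members passed (9 higher, 3 lower). Of all probe sets 7376 did (14.0%), 3579 higher and 3797 lower. The 2 groups of arrays did not overlap in 9 members, 6 higher and 3 lower, which is 16.4% against 19.4% of all probe sets (9.21% higher and 10.2% lower). The median log2 fold change of the members was 0.05, against -0.03 for all probe sets, and 32 of 55 were positive. The calls were 3 genes in a family whose median and share of separated groups lay near those of the whole array. Its passes at an unadjusted p of 0.05 leaned more to the higher side than those of the whole array.

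**Figure D1:**
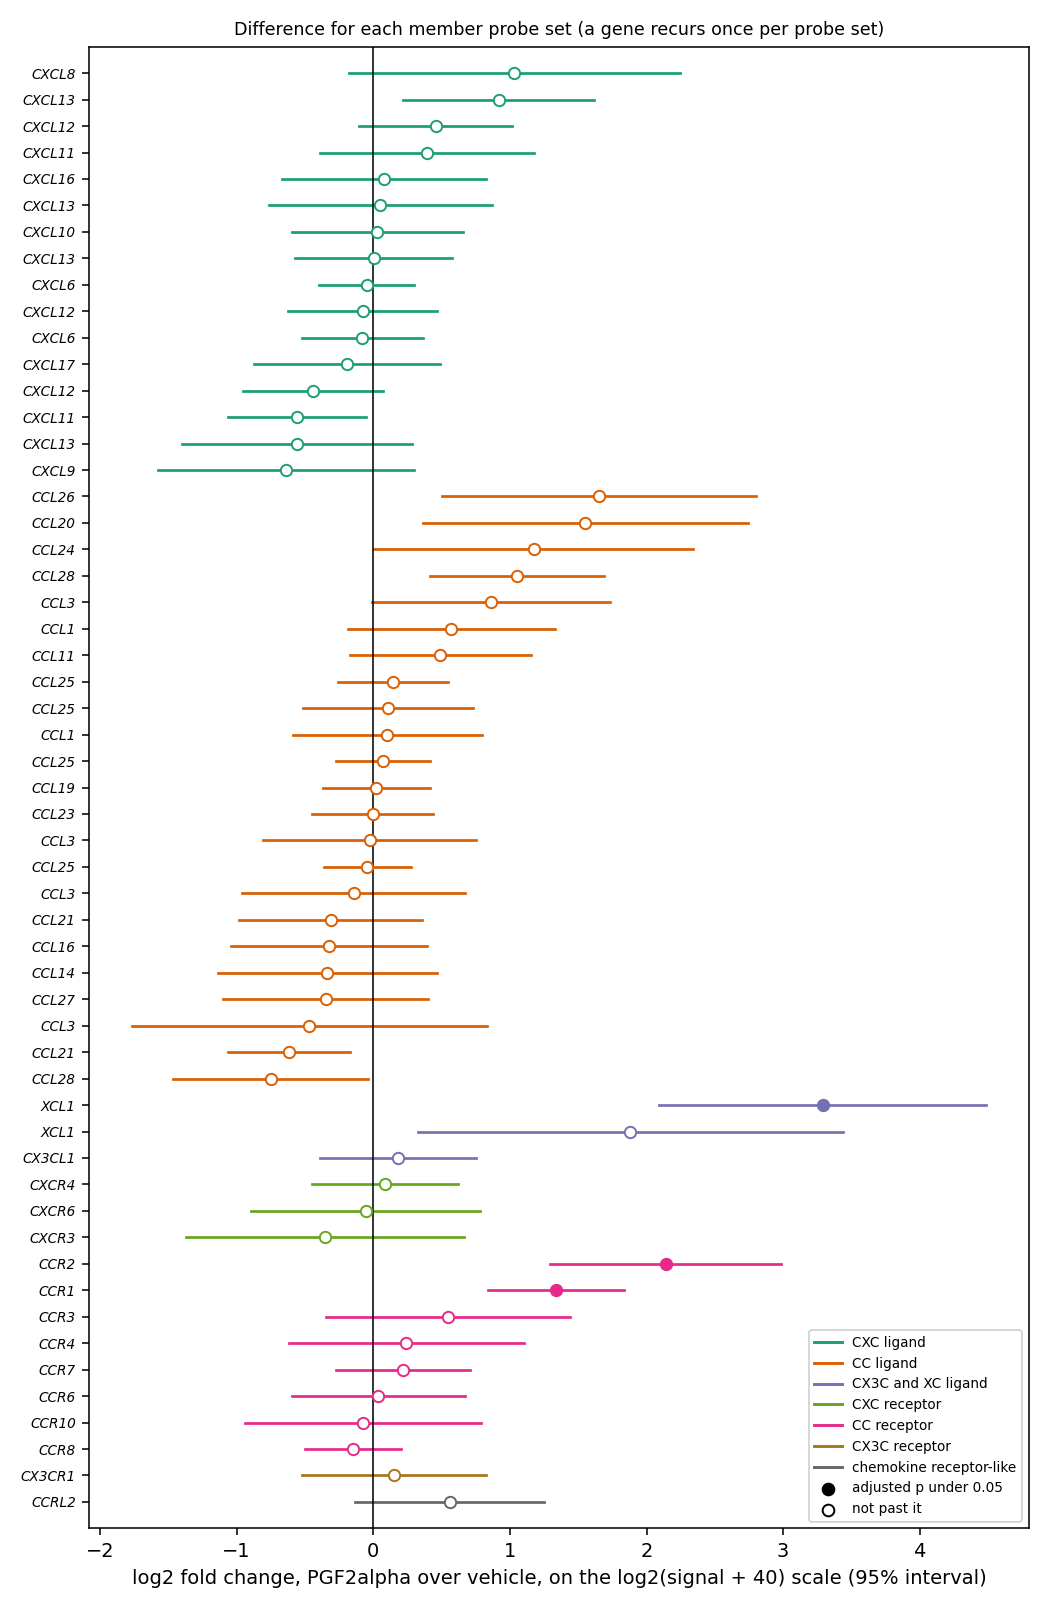
Log2 fold change (PGF2alpha over vehicle, on the log2(signal + 40) scale) of each of the 55 member probe sets with its 95% interval, coloured by role; filled points passed an adjusted p of 0.05. Filled points appear for XCL1, CCR2 and CCR1, and most other intervals cross 0.

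Among receptors, CCR2 and CCR1 were higher after PGF2alpha. CCR2 is the receptor of CCL2 and brings classical monocytes out of the blood. Its signal was 135, 355 and 135 on PGF2alpha arrays 1 to 3, against 17.1, 10.6 and 8.84 on vehicle arrays 4 to 6. All PGF2alpha arrays lay above all vehicle arrays, with array 2 the highest. Group means were 208 ± 127 in the PGF2alpha group and 12.2 ± 4.36 in the vehicle group (SD, n = 3 each). The log2 fold change was 2.14 (SE 0.38, limma adjusted p = 0.0300), with a difference of 1.82 within run 1 and 2.79 within run 2. Each vehicle signal lay far below the array median, which leaves the fold poorly measured.

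CCR1 binds CCL3 and CCL5 on monocytes, macrophages and some granulocytes. Its signal was 496, 529 and 390.5 on PGF2alpha arrays 1 to 3, against 182, 129 and 176 on vehicle arrays 4 to 6. The groups did not overlap, and the gap between them exceeded the range within either group. Group means were 472 ± 72.3 in the PGF2alpha group and 162 ± 29.3 in the vehicle group (SD, n = 3 each). The log2 fold change was 1.34 (SE 0.22, limma adjusted p = 0.0245), and the difference was 1.33 within run 1 and 1.36 within run 2. CCR1 was at or above the array median on 5 of 6 arrays.

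Some markers of macrophages and monocytes were also higher after PGF2alpha. Of 14 listed markers named on the array, 5 rose and 0 fell, with a median log2 fold change of 0.99. Of all probe sets, 1.01% were called higher and 0.555% lower. The 5 were CD14, CD68, MRC1, MARCO and VSIG4. MSR1, C1QA, C1QB and ITGAM had overlapping groups, at 0.29, 0.32, 0.55 and -0.12. The summed signal of the 14 was 49843 to 81858 on the PGF2alpha arrays and 20244 to 33977 on the vehicle arrays. None of the 14 was below the array median on all 6 arrays. LYZ, which did not pass in limma (adjusted p = 0.197), gave a large part of that sum. It read 24759, 52126.5 and 28125 on PGF2alpha arrays 1 to 3, against 21139, 12460 and 19946 on vehicle arrays 4 to 6. More cells of a type and more RNA per cell cannot be told apart in such bulk tissue. The part of these cells in the rise of CCR1 and CCR2 was not tested.

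The other CC receptors did not pass. CCR3, the eotaxin receptor of eosinophils and basophils, read 123, 404 and 155 on PGF2alpha arrays 1 to 3, against 137, 160.3 and 88.0 on vehicle arrays 4 to 6. Array 2 was high and the remaining PGF2alpha arrays lay within the vehicle range, with a log2 fold change of 0.55 (95% interval -0.35 to 1.44, adjusted p = 0.612). CCR3 was chosen for display after its values were seen. CCR7, which guides mature dendritic cells and naive T cells to lymph nodes, stood at 0.22 (95% interval -0.28 to 0.71), and CCR6, the receptor of CCL20, at 0.04 (95% interval -0.60 to 0.67). CCR4, CCR8 and CCR10 were below the array median on all 6 arrays, with log2 fold changes of 0.24, -0.15 and -0.08. CCR8 had groups that did not overlap, at 4.36, 6.12 and 4.27 on PGF2alpha arrays 1 to 3, against 11.9, 9.17 and 8.57 on vehicle arrays 4 to 6, all far below the median.

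Receptors of CXC and CX3C ligands showed no call in limma. Of their 4 probe sets, 0 reached an unadjusted p of 0.05, beside 14.0% of all probe sets. CXCR4, which binds CXCL12 and is carried by most white blood cells and by endothelium, read 1557, 2761 and 3111 on PGF2alpha arrays 1 to 3, against 1999.6, 2525 and 2213 on vehicle arrays 4 to 6. The PGF2alpha arrays held both the lowest and the highest of the 6 signals. Its log2 fold change was 0.09 (95% interval -0.45 to 0.62, adjusted p = 0.924), an interval that leaves out a 2-fold change either way. CX3CR1, the fractalkine receptor of patrolling monocytes and NK cells, read 143, 113 and 107 on PGF2alpha arrays 1 to 3, against 132, 72.1 and 117 on vehicle arrays 4 to 6. Its groups overlapped, with a log2 fold change of 0.15 (95% interval -0.52 to 0.82). CXCR3, the receptor of interferon-induced ligands on activated T and NK cells, stood at -0.35 and CXCR6 at -0.06, both with intervals wider than 1 log2 unit. CCRL2, a receptor-like protein that presents chemerin, read 487, 491 and 278 on PGF2alpha arrays 1 to 3, against 402, 249.8 and 177 on vehicle arrays 4 to 6, with overlapping groups and a log2 fold change of 0.56 (adjusted p = 0.475).

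XCL1, or lymphotactin, is made by activated CD8 T cells and NK cells and attracts cross-presenting dendritic cells. Its called probe set read 693, 630.4 and 124 on PGF2alpha arrays 1 to 3, against 2.58, 6.35 and 3.72 on vehicle arrays 4 to 6. PGF2alpha arrays 1 and 2 were high, array 3 was intermediate and close to the array median, and all vehicle arrays were near the bottom of the range. Group means were 483 ± 312 in the PGF2alpha group and 4.22 ± 1.93 in the vehicle group (SD, n = 3 each). The log2 fold change was 3.29 (SE 0.53, limma adjusted p = 0.0221), with 2.94 within run 1 and 3.98 within run 2. Its size is uncertain, since the vehicle signals were far below the pseudocount of 40.

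A second XCL1 probe set, of a kind that can bind more than 1 transcript, read 232, 421 and 9.0 on PGF2alpha arrays 1 to 3, against 9.99, 12.7 and 6.73 on vehicle arrays 4 to 6. Here arrays 1 and 2 were again high, while array 3 lay within the vehicle range. Its log2 fold change was 1.88 (SE 0.69, adjusted p = 0.255), the same direction without a call. XCR1, the receptor of XCL1, was below the array median on all 6 arrays, with means of 39.2 ± 25.1 in the PGF2alpha group and 19.8 ± 3.54 in the vehicle group (SD, n = 3 each) and a log2 fold change of 0.35 (adjusted p = 0.661).

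Markers of T and NK cells had 1 rise and 0 falls among 8 named on the array. Over all probe sets 1.01% were called higher and 0.555% lower. The one that rose was GNLY, the cytolytic protein granulysin, which averaged 22668 ± 7710.0 in the PGF2alpha group and 2743 ± 695 in the vehicle group (SD, n = 3 each), with a log2 fold change of 3.01 (adjusted p = 0.00302). The summed signal of the 8 markers was 28320 to 44965 on the PGF2alpha arrays and 14659 to 18291 on the vehicle arrays. That difference largely followed GNLY. It read 21587, 30861 and 15555 on PGF2alpha arrays 1 to 3, against 1973, 2934 and 3322 on vehicle arrays 4 to 6. The probe sets of GNLY, GZMA and NKG7 are of a kind that can bind more than 1 transcript. The granule protease GZMA stood at -0.85 on the log2 scale, its adjusted p being 0.0887, NKG7 at 0.17 and CD8A at 0.13, none of them past the threshold. The part of these cells in the rise of XCL1 was not tested.

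**Figure D2:**
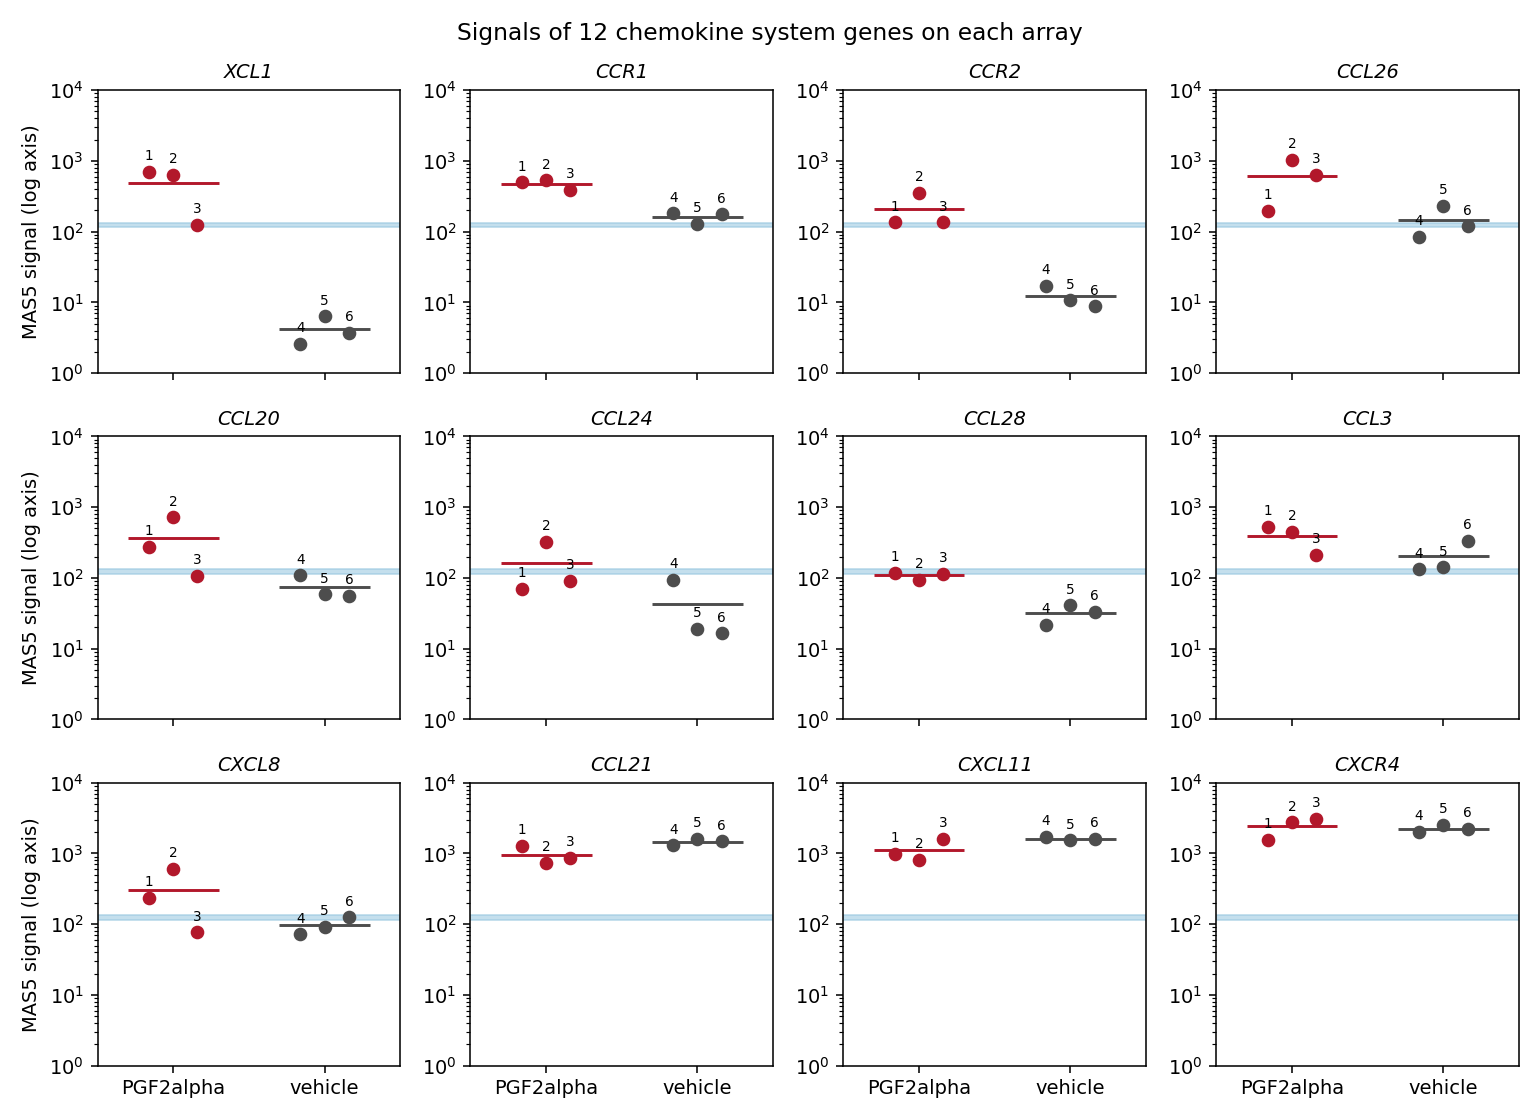
MAS5 signal (log axis) of 12 chemokine system genes on each array, with PGF2alpha arrays in red and vehicle arrays in grey, the array number above each point, the group mean as a line, and the range of array medians (115 to 134) as a blue band. XCL1, CCR1, CCR2 and CCL28 have separated groups with the PGF2alpha arrays above, CCL21 has them below, and CCL20, CCL24, CCL26, CXCL8, CCL3 and CXCL11 have 1 or more PGF2alpha arrays within the vehicle range.

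Among 23 probe sets of CC ligands, 0 passed the adjusted threshold in limma, beside 1.57% of all probe sets. At an unadjusted p of 0.05, 6 passed, 4 higher and 2 lower, beside 14.0% of all probe sets. The eotaxins, which are ligands of CCR3, attract eosinophils. CCL26, or eotaxin-3, read 196, 1029 and 628 on PGF2alpha arrays 1 to 3, against 84.9, 233 and 119 on vehicle arrays 4 to 6. Arrays 2 and 3 were above every vehicle array and array 1 was not, with a log2 fold change of 1.65 (95% interval 0.50 to 2.80, adjusted p = 0.169). CCL24, or eotaxin-2, read 69.9, 323 and 90.2 on PGF2alpha arrays 1 to 3, against 94.7, 19.1 and 16.5 on vehicle arrays 4 to 6. Only array 2 stood above all vehicle arrays, with a log2 fold change of 1.18 (adjusted p = 0.353). CCL11, or eotaxin-1, chosen for display after its values were seen, had overlapping groups and a log2 fold change of 0.49 (95% interval -0.17 to 1.15, adjusted p = 0.519).

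CCL20, the ligand of CCR6 that epithelium and neutrophils release in inflammation, read 275, 721 and 107 on PGF2alpha arrays 1 to 3, against 109, 58.5 and 55.4 on vehicle arrays 4 to 6. Arrays 1 and 2 exceeded the vehicle range and array 3 fell inside it. Its log2 fold change was 1.55 (95% interval 0.36 to 2.74, adjusted p = 0.212), and it passed without PGF2alpha array 3 (2.13, adjusted p = 0.0474). Without PGF2alpha array 2 it was 0.94 (adjusted p = 0.473). Within runs 1 and 2 the difference was 1.15 and 2.35. CCL3, a ligand of CCR1, read 530.4, 449 and 212 on PGF2alpha arrays 1 to 3, against 133, 141 and 335 on vehicle arrays 4 to 6 on its brightest probe set, which can bind more than 1 transcript. The groups overlapped through array 3 and vehicle array 6, with a log2 fold change of 0.86 (adjusted p = 0.365), while its 3 dimmer probe sets stood between -0.47 and -0.03.

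CCL28, a mucosal ligand of CCR10 and CCR3, read 118, 93.2 and 114 on PGF2alpha arrays 1 to 3, against 21.7, 41.2 and 33.0 on vehicle arrays 4 to 6. The groups did not overlap, and every signal was below its array median. The log2 fold change was 1.05 (SE 0.28, unadjusted p = 0.0046, adjusted p = 0.116). Its other probe set pointed the opposite way, at 6.18, 14.9 and 36.9 on PGF2alpha arrays 1 to 3, against 65.3, 86.6 and 29.9 on vehicle arrays 4 to 6, with a log2 fold change of -0.75 (adjusted p = 0.331).

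CCL21 and CCL19 are the ligands of CCR7, and CCL21 is typical of lymphatic endothelium. CCL21 read 1279, 743 and 858 on PGF2alpha arrays 1 to 3, against 1302, 1596 and 1479.8 on vehicle arrays 4 to 6. All PGF2alpha arrays lay below all vehicle arrays, with array 1 next to vehicle array 4. Group means were 960.1 ± 282 in the PGF2alpha group and 1459 ± 148 in the vehicle group (SD, n = 3 each), and the log2 fold change was -0.62 (SE 0.20, adjusted p = 0.187), which did not pass. Its other probe set, below the median on all 6 arrays, stood at -0.31. CCL19 read between 10.5 and 16.1 on all 6 arrays, with a log2 fold change of 0.02.

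CCL25, the ligand of CCR9 known from thymus and small intestine, was read by 4 probe sets, and the groups overlapped on each. The brightest read 9019.8, 9036 and 10099 on PGF2alpha arrays 1 to 3, against 9917, 7489.6 and 9585 on vehicle arrays 4 to 6. Its log2 fold change was 0.07 (95% interval -0.27 to 0.41), and those of the other 3 were 0.15, -0.04 and 0.11. The 2 brightest of the 4 are of a kind that can bind more than 1 transcript. CCL1, CCL14, CCL16, CCL23 and CCL27, of which only CCL1 and CCL27 reached the array median on any array, had log2 fold changes between -0.35 and 0.57, with adjusted p of 0.513 or more. The CCL1 groups did not overlap on its brighter probe set, which is of a kind that can bind more than 1 transcript, at 178, 150.0 and 186 on PGF2alpha arrays 1 to 3, against 149, 128 and 50.2 on vehicle arrays 4 to 6.

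Of 16 probe sets of CXC ligands, 0 passed in limma, beside 1.57% of all probe sets. An unadjusted p of 0.05 was reached by 2, 1 in each direction, beside 14.0% of all probe sets. CXCL8, or interleukin-8, attracts neutrophils and is the ligand of CXCR1 and CXCR2. It read 234, 610.4 and 76.7 on PGF2alpha arrays 1 to 3, against 72.1, 91.1 and 125 on vehicle arrays 4 to 6. Arrays 1 and 2 were above the vehicle range and array 3 was inside it, with a log2 fold change of 1.03 (95% interval -0.18 to 2.24, adjusted p = 0.448). CXCL6, which binds the same receptors, read 808, 935 and 855 on PGF2alpha arrays 1 to 3, against 863, 788 and 1056 on vehicle arrays 4 to 6, with no separation and a log2 fold change of -0.05 (95% interval -0.40 to 0.30), and its other probe set stood at -0.08. Neutrophil markers had 2 rises (S100A8 and S100A9) and 0 falls among 9 named on the array, beside 1.01% and 0.555% of all probe sets. The rest did not pass, with ELANE at -0.61 and MPO at -0.28. MMP8, S100A12, FPR1, CSF3R and LCN2 stood at 0.16, 0.46, 0.82, 1.09 and 1.34. The probe sets of S100A9 and LCN2 are of a kind that can bind more than 1 transcript. Of the 9, 5 were below the array median on all 6 arrays. Their summed signal was 12088 to 29588 on the PGF2alpha arrays and 3537 to 6823 on the vehicle arrays, and the part of these cells in the ligand signals was not tested.

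CXCL9, CXCL10 and CXCL11 are induced by interferon-gamma and act on CXCR3. CXCL9 read 43.2, 19.6 and 9.06 on PGF2alpha arrays 1 to 3, against 89.5, 10.5 and 100.4 on vehicle arrays 4 to 6. Every signal was below the array median and the groups overlapped, with a log2 fold change of -0.64 (adjusted p = 0.561). CXCL10 lay between 82.5 and 106 on all 6 arrays, below every array median, with a log2 fold change of 0.03 (95% interval -0.60 to 0.65). CXCL11 read 979, 812 and 1615 on PGF2alpha arrays 1 to 3, against 1724, 1534 and 1603 on vehicle arrays 4 to 6 on its brighter probe set. Arrays 1 and 2 were below the vehicle range and array 3 was inside it. Its log2 fold change was -0.56 (adjusted p = 0.305), and without PGF2alpha array 3 it passed (-0.83, adjusted p = 0.0325). Without PGF2alpha array 2 it was -0.35 (adjusted p = 0.599). The other CXCL11 probe set was dim, at 0.39, so a direction for CXCL11 depends on the probe set. IFNG, the inducer of this trio, was itself below the array median on all 6 arrays, with means of 19.9 ± 4.46 in the PGF2alpha group and 49.8 ± 3.76 in the vehicle group (SD, n = 3 each) and a log2 fold change of -0.59 (adjusted p = 0.295).

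CXCL12, made by stromal and perivascular cells, holds CXCR4-bearing cells in tissues. Its brightest probe set read 1195, 635 and 676 on PGF2alpha arrays 1 to 3, against 720.2, 495 and 530.0 on vehicle arrays 4 to 6. Array 1 was high and arrays 2 and 3 lay within the vehicle range, with a log2 fold change of 0.46 (95% interval -0.11 to 1.02, adjusted p = 0.473). A second probe set had groups apart in the opposite direction, at 192, 219 and 206 on PGF2alpha arrays 1 to 3, against 230.4, 352 and 311 on vehicle arrays 4 to 6, and a log2 fold change of -0.44 (adjusted p = 0.439). The third stood at -0.08. No direction for CXCL12 could be read from these probe sets.

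CX3CL1, or fractalkine, is held on the surface of endothelium and is the ligand of CX3CR1. It read 324, 253 and 313 on PGF2alpha arrays 1 to 3, against 359, 247 and 186 on vehicle arrays 4 to 6. The groups overlapped, with a log2 fold change of 0.18 (95% interval -0.39 to 0.75, adjusted p = 0.829). CXCL13, which attracts B cells, was below the array median on all 6 arrays in all 4 of its probe sets, whose log2 fold changes ran from -0.56 to 0.92. The highest belonged to a probe set with groups apart, at 70.4, 102 and 37.2 on PGF2alpha arrays 1 to 3, against 27.2, 19.8 and 4.90 on vehicle arrays 4 to 6 (adjusted p = 0.211). CXCL16 and CXCL17 stood at 0.08 and -0.19.

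Of the 10 member genes with several probe sets, 6 had probe sets of opposite sign: CCL25, CCL28, CCL3, CXCL11, CXCL12 and CXCL13. The 4 whose probe sets shared a sign were CCL1, CCL21, CXCL6 and XCL1. In all, 9 of the 55 member probe sets are of a kind that can bind more than 1 transcript, and none of the 3 called ones is among them. At or above the array median on at least 3 of 6 arrays were 26 members, and 22 (40%) were below it on all 6, against 38% of all probe sets. Among the 26944 probe sets that reached it on at least 3 arrays, fitted alone, 5.01% were called, and of the 26 members CCR1 and CCR2 were. CCR2 reached the median on its 3 PGF2alpha arrays and on no vehicle array, so it entered that fit only through the group where it is high, and its call there is no support. The called XCL1 probe set reached the median on 2 arrays and was not in that fit.

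PGF2alpha array 2 gave the highest of the 6 signals in 15 of 55 members (27.3%), against 14.6% of all probe sets. Array 1 did so in 12 members (21.8% against 18.4%) and array 3 in 6 members (10.9% against 14.9%). Among the members highest on array 2 were CCR1, CCR2, CCR3, CCR7, CCRL2, CCL20, CCL24, CCL26 and CXCL8. In CCR1 and CCRL2 array 1 came close, at 496 against 529 and 487 against 491. Without array 2 the log2 fold change was 0.64 for CCL24, 1.18 for CCL26 and 0.41 for CXCL8. The summed macrophage and neutrophil markers were also highest on array 2, at 81858 and 29588. LYZ gave 52126.5 of the first sum there. S100A8, S100A9 and LCN2 gave most of the second, at 6709, 10253 and 12180. Summed markers of T and NK cells, B and plasma cells and dendritic cells also peaked on array 2, at 44965, 948 and 1503. Those of endothelium, stroma, smooth muscle, luteal cells and red cells did not. Array 2 is the only PGF2alpha array of run 2. The part of cell content or run in this order was not tested. Of the 19 named genes, 6 had differences of opposite sign within the 2 runs: CCL25, CXCL6, CXCL12, CXCR4, CX3CL1 and CX3CR1. CXCR4, for example, stood at -0.10 in run 1 and 0.46 in run 2, and CXCL12 at 0.77 in run 1 and -0.17 in run 2. CXCL8 stood at 0.28 in run 1 and 2.54 in run 2, CCL26 at 0.93 and 3.10 in the same order, and CXCL11 at -0.31 and -1.05.

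**Figure D3:**
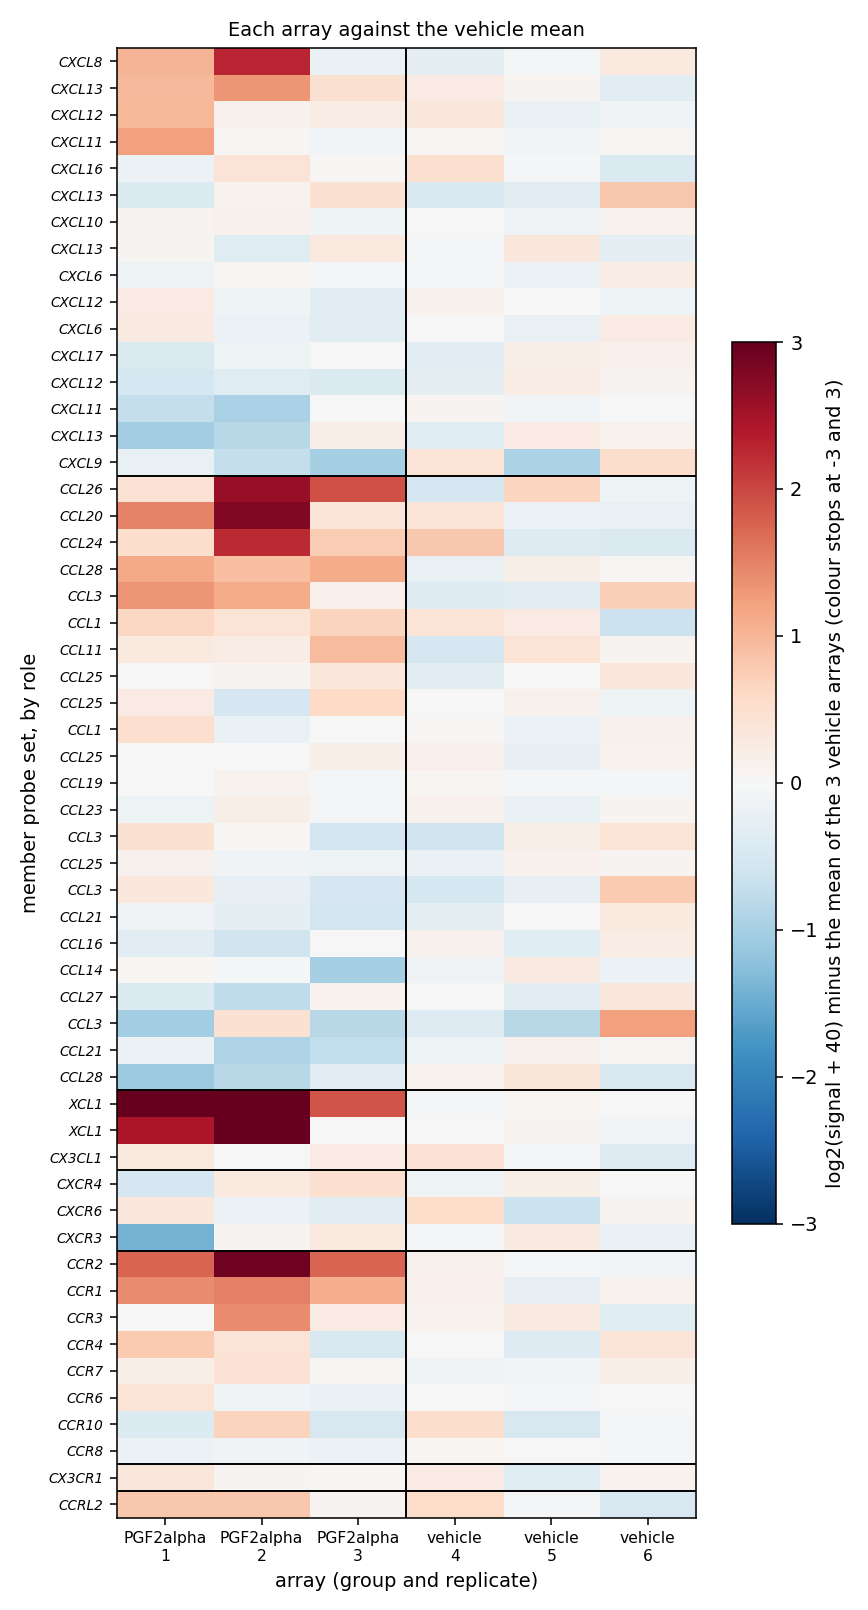
Colour shows log2(signal + 40) of each member probe set on each array minus the mean of the 3 vehicle arrays, with rows grouped by role and PGF2alpha arrays left of vehicle arrays. The CCR2 and CCR1 rows and 1 of the 2 XCL1 rows are red on all PGF2alpha arrays. The other XCL1 row is red on PGF2alpha arrays 1 and 2 but not on array 3. CXCL8, CCL20, CCL24 and CCR3 are reddest on PGF2alpha array 2.

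Other genes of chemokine action were read from lists of 83 symbols outside the members, of which 62 were named on the array. Of these 5 rose and 0 fell, beside 1.01% of all probe sets called higher and 0.555% called lower, and the lists were chosen with earlier results of these data known. Their median log2 fold change was 0.27, against -0.03 for all probe sets, and 11 were below the array median on all 6 arrays. In the list of proteases and anchors that cut or hold chemokines, 4 of 10 rose: the syndecans SDC1 (1.83, adjusted p = 0.00897) and SDC4 (1.14, adjusted p = 0.0280), surface proteoglycans that bind chemokines, the gelatinase MMP9 (2.18, adjusted p = 0.0255) and urokinase PLAU (1.54, adjusted p = 0.0154). Of these 4, the SDC1 probe set is of a kind that can bind more than 1 transcript. Among related ligands and receptors under other names 1 of 12 rose, the complement C5a receptor C5AR1 (1.47, adjusted p = 0.0217). Among 4 atypical receptors and scavengers, 20 genes of receptor signalling and 16 inducers of chemokine transcription, 0 passed in each list. The medians of these 3 lists were 0.02, 0.32 and 0.13. The count of 5 was 2 without PGF2alpha array 1, 0 without PGF2alpha array 2, 1 without vehicle array 4 or 6, 2 without vehicle array 5, 7 without PGF2alpha array 3 and 0 without a variance trend. The scavenging receptors ACKR1 and ACKR3 stood at log2 fold changes of 0.36 and 0.02.

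The calls of CCR1, CCR2 and XCL1 depended on single arrays. Each of the 3 was lost without any 1 array other than PGF2alpha array 3. The adjusted p over these omissions and that of array 3 ran from 0.0239 to 0.136 for CCR1, from 0.0273 to 0.123 for CCR2 and from 0.00123 to 0.119 for XCL1. Their log2 fold changes stayed positive, at 1.21 to 1.46, 1.75 to 2.34 and 2.91 to 3.99. Calls over all probe sets fell to between 58 and 231 without any 1 of those 5 arrays and were 1248 without PGF2alpha array 3. All 3 were also lost when the variance was fitted without a trend on brightness, with adjusted p of 0.0814 for CCR1 and CCR2 and 0.0847 for XCL1. With a pseudocount of 160 CCR1 passed, while CCR2 (adjusted p = 0.0656) and XCL1 (adjusted p = 0.0624) did not.

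**Figure D4:**
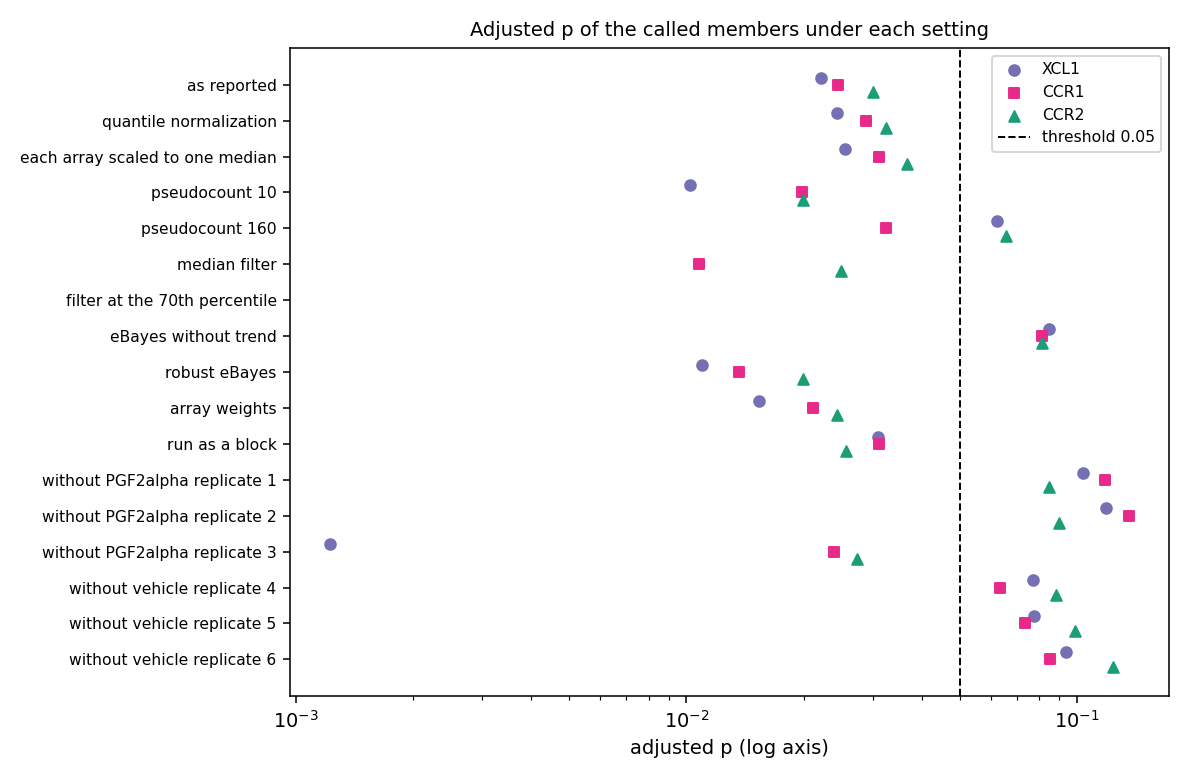
Adjusted p (log axis) of XCL1, CCR1 and CCR2 as reported and under each other setting, with the threshold of 0.05 dashed; a missing point means that the probe set did not pass that filter. The points lie left of the threshold as reported and right of it without any 1 array other than PGF2alpha array 3.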

How the data were processed

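Total RNA of corpus luteum was hybridised to 6 Affymetrix Rhesus arrays. Each deposited value is a probe set's signal intensity on a linear scale; per the labels, the authors computed it with Affymetrix Microarray Suite 5.0 (MAS5). Their trimmed mean (2% left out at each end) was 500.0 on every array, so no further normalization was applied. The deposited scanner experiment files hold other settings of fluidics and scanner, read only for chip type and run. Gene symbols are those of the platform annotation, which may be outdated; 24969 probe sets had a single symbol, 361 had several and 27535 were unnamed. No genome, probe or protein sequence was used.

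Values were taken as log2(signal + 40), close to the 25th percentile of all values, so fold changes of low genes are understated. All 52766 probe sets other than 99 controls entered one limma fit (version 3.58.1, R 4.3.3; lmFit, then eBayes with a variance trend). Tests were two-sided and p-values were adjusted by Benjamini and Hochberg's method across the whole table. Intervals are limma's at 95%. A gene was represented by its probe set of highest mean. Group means are of deposited signals.

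Named genes were those past the threshold, the 8 of highest mean signal, the 6 of largest change among the rest and the pairs CXCL12 with CXCR4 and CX3CL1 with CX3CR1, 19 genes in all; other members and list genes given with values were chosen after their values were seen. Members and lists were chosen with earlier results of these data known. On simulated data for this comparison (52766 probe sets, 200 changed) 21% of the 2-fold changes passed, as did 81% of the 4-fold ones. Of 105 calls there, 3 were false. The 200 were drawn only from probe sets of mean signal at or above the median of all values. Spreads were drawn from the variance model that limma fitted. These rates therefore do not describe dimmer members. The number of arrays limits the precision. Alternatives were other normalizations, pseudocounts of 10 and 160, brightness filters, other variance settings, array weights, the run as a block and leaving out each array.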

Additional observations from a re-analysis of the deposited data

How the results depend on the processing

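The 3 members called higher were called again with quantile normalization, scaling to a common median and a pseudocount of 10. They were also called with robust variances, array weights and the run as a block. Leaving out probe sets that can cross-hybridise was only a recount of the reported fit. It could not change the count, since none of the 3 is of that kind. With a pseudocount of 160 the count was 1 (CCR1). It was 2 with the median filter, which XCL1 did not pass and CCR2 passed only through its PGF2alpha arrays, 0 with the filter at the 70th percentile, which none of the 3 passed, and 0 without a variance trend. Leaving out 1 array gave counts of 0 to 5 higher and 0 to 1 lower. The 5 pathway genes called higher became 0 without a variance trend, and 0 to 7 when 1 array was left out. Over all probe sets, calls numbered 826 as reported, 1351 and 1362 with the filters, 19 without a variance trend and 58 to 1248 with 1 array left out. Of the 16 named genes not past the threshold, 14 passed under none of the alternatives that could test them, and CCL20 and CXCL11 passed without PGF2alpha array 3. Signs turned in 5 named genes near 0 when 1 array was left out, with ranges of -0.057 to 0.145 for CCL25, -0.11 to 0.38 for CXCR4, -0.137 to 0.065 for CXCL6, -0.014 to 0.397 for CX3CL1 and -0.033 to 0.274 for CX3CR1. The 3-prime to 5-prime differences ran from -0.077 to 0.220 for actin and from -0.088 to 0.022 for GAPDH. The causes were not tested. No paired analysis was possible because the groups share no replicate number.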
